A study of Mus musculus with 8 samples.

Results

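A set of 41 antiviral interferon-stimulated genes was followed in bulk RNA-seq of mouse bone marrow-derived monocytes that were driven to become osteoclasts, the large bone-resorbing cells with many nuclei. The set was taken by gene symbol from the 21958 genes of the tables and left out the IFIT, OAS, GBP, IRG, p200, IRF, STAT and Schlafen families. All cultures came from C57BL/6 mice and received 50 ng/ml M-CSF, which keeps monocytes alive, and 100 ng/ml RANKL, which starts osteoclast differentiation. In the first experiment, 2 libraries of cells with the genotype *LysM-Cre;Arid1a*fl/fl (cKO) were set against 2 libraries labelled only as control. In the second, 2 libraries of wild-type cells given JQ1 were set against 2 libraries of untreated wild-type cells.

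ARID1A is a subunit of the BAF chromatin remodelling complex, and JQ1 displaces the BET proteins from acetylated histones. The Cre of the cKO is driven by the lysozyme M promoter, which is active in monocytes, macrophages and neutrophils, and it removes only part of *Arid1a*, so that the remaining exons can still give reads. Columns for the JQ1 experiment are named by codes. Reading these as without and with the drug was a choice, and every direction given for JQ1 rests on that reading. The 2 libraries of each JQ1 group were not tied to single samples and are called a and b. The supplement of the study calls the bulk RNA-seq samples of the Arid1a experiment biologically independent, and no label says whether the libraries of a group came from separate animals. What a p-value reflects here is the variation among these libraries, and for JQ1 that variation may be technical.

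Type I interferon binds the receptor IFNAR, whose kinases JAK1 and TYK2 activate transcription factors inside the cell. A complex that holds STAT2 and IRF9 then binds the interferon-stimulated response element in promoters and switches on many genes, those described here among them. Their products tag proteins with ISG15, trap or degrade viral nucleic acids, block membrane fusion or budding, or sit in nuclear bodies. In osteoclast precursors, interferon-beta is known as a brake on the response to RANKL.

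The libraries held 15108239 to 17302136 counted reads. The unit of level is CPM, a count relative to library size after TMM scaling, which corrects for differences in library composition. *Arid1a* itself stood at 159 and 229 CPM in the controls and at 126 and 121 in the cKO, a log2 fold change of -0.65 ± 0.15 (SE, adjusted p = 0.00607). The 2 controls of that experiment differed more than the other pairs. Over the 40 genes of the set that could be tested, control 1 was above control 2 by a median of 0.20 on the log2 scale and in 31 of 40 genes, against a median of 0.02 over all genes. The corresponding medians were -0.01 for the cKO pair, 0.06 for the JQ1 control pair and 0.01 for the JQ1 pair.

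In the cKO most of these antiviral genes rose, and under JQ1 most of them fell. The 41 genes together took 0.531% and 0.487% of the reads in the controls and 1.02% and 1.03% in the cKO. They took 0.541% and 0.529% in the JQ1 controls and 0.247% and 0.252% under JQ1. In bulk RNA, fewer cells that express a gene and less RNA per cell cannot be told apart.

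Of the 40 tested genes, 37 were called higher in the cKO at an adjusted p under 0.05, where 18.1% of all 11319 tested genes were called higher. Only *Ifi27* was called lower, where 16.3% of all tested genes were. The median log2 fold change of the set was 1.39, beside -0.0035 over all genes, and 29 of the 40 were at least 2-fold higher, beside 5.61% of all genes. Both cKO libraries lay above both controls for 37 genes, a separation that 34.4% of all genes showed.

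Under JQ1, 38 of the 40 were called lower, where 20.5% of all 11352 tested genes were, and 0 were called higher, where 19.3% were. The highest log2 fold change of the set was -0.02 (*Sp140*), so that no threshold could give a higher call in this fit. The count of higher genes was also 0 with DESeq2 and limma-voom. The median log2 fold change was -1.24, beside 0.0026 over all genes, and 26 were at least 2-fold lower, beside 6.17% of all genes. Both JQ1 libraries lay below both controls for 39 genes, which 34.2% of all genes did. Taking both experiments, 36 of the 40 were called higher in the cKO and lower under JQ1, as were 5.17% of the 10987 genes tested in both.

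**Figure D1:**
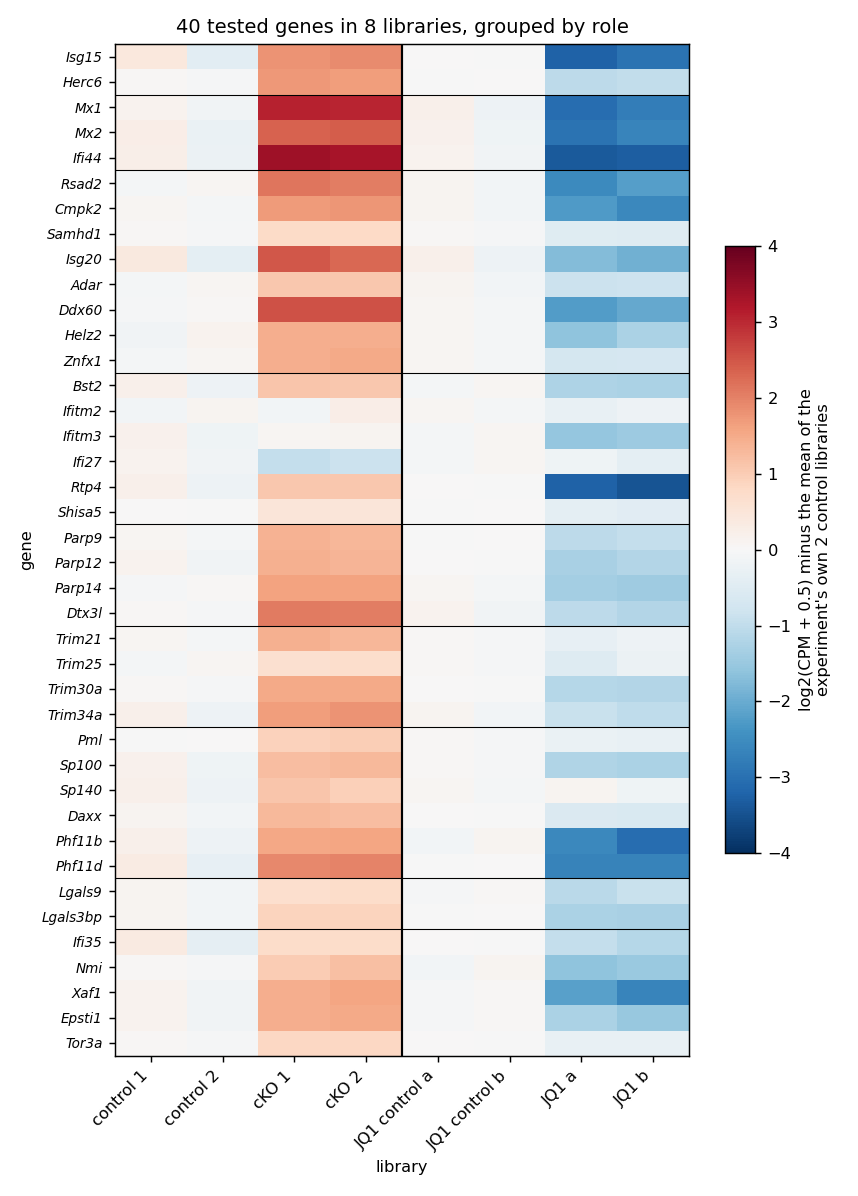
Heat map of the 40 tested genes (rows, in 9 roles separated by lines) in the 8 libraries (columns), as log2(CPM + 0.5) minus the mean of the 2 control libraries of the same experiment, red above and blue below. The cKO columns are red except for *Ifi27*, *Ifitm2* and *Ifitm3*, and the JQ1 columns are blue except for genes such as *Sp140* that stay near white.

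The promoters of the set were read for the response element. Because the set was chosen as interferon-stimulated genes, an excess of this element may follow from that choice alone. The part of the element in the changes was not tested. The RefSeq table of promoters (build GRCm38.p6, 250 bases before to 50 bases after a start site) held entries for 34 of the 41, and each of their windows matched GRCm39, the build of the count tables, at exactly 1 place. It held none for *Mx1*, *Mx2*, *Ifi27*, *Rtp4*, *Parp9*, *Parp14* and *Tor3a*. The core searched for was TTTC, any 2 bases and TTTC, on either strand, which reads as GAAA, any 2 bases and GAAA on the other. It was found in 12 of the 34 genes (35.3%) and in 1079 of 27025 genes in the table (3.99%). A gene with several windows counted once if any window held the core.

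The stretches below show this core, in capitals, in genes whose changes are given further on. They are 30 bases long, read 5′ to 3′ along the gene's strand, and their GRCm39 positions follow. *Isg15* carried 3 overlapping cores, *Bst2* and *Trim21* carried 2 overlapping cores each, and *Ifitm3* carried 2 separate ones just after its start site. *Ddx60* carried 2 separate cores before its start site, and its stretch shows the nearer of them. *Ifitm2* and *Ifitm3* are shown because they held the core and were not called in the cKO.
Isg15: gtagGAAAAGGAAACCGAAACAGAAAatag
Ddx60: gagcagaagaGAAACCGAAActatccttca
Rsad2: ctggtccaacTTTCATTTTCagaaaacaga
Bst2: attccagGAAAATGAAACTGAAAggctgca
Phf11b: cacatttagaGAAAAAGAAActagaaacta
Trim21: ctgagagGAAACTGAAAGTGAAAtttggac
Trim30a: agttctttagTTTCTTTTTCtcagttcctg
Ifitm2: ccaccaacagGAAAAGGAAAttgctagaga
Ifitm3: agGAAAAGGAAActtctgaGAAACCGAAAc

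The stretch of *Isg15* lies at chr4:156285328-156285357 on the minus strand, that of *Ddx60* at chr8:62381092-62381121 on the plus strand and that of *Rsad2* at chr12:26506552-26506581 on the minus strand. *Bst2* was read at chr8:71990224-71990253, *Phf11b* at chr14:59578810-59578839 and *Trim21* at chr7:102214654-102214683, all on the minus strand. *Trim30a* was read at chr7:104114417-104114446, *Ifitm2* at chr7:140535901-140535930 and *Ifitm3* at chr7:140590628-140590657, also on the minus strand. The cores of *Isg15*, *Ddx60*, *Rsad2*, *Bst2*, *Phf11b* and *Ifitm2* lie before the start site. Those of *Ifitm3* and *Trim21* lie after it. The core shown for *Trim30a* lies before the start site of its window, and another window, with a different start site, held a core after that site.

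The other genes with the core were *Shisa5*, *Trim34a* and *Lgals9*. *Shisa5* held it in 1 window, of a start site inside the gene (chr9:108883934), and not in its other windows. The 12 genes with the core and the 21 tested genes without it had median log2 fold changes of 1.46 and 1.39 in the cKO and of -1.21 and -1.24 under JQ1. Those 21 lacked this spacing and were not shown to lack a response element. Among them, genes such as *Helz2*, *Phf11d*, *Xaf1*, *Ifi44*, *Adar*, *Ifi35* and *Sp100* held GAAA or TTTC repeated at a closer spacing in a window. That spacing was not searched for. *Ifi44*, the gene with the largest changes, held no core with a gap of 2 bases. It held TTTC, any 3 bases and TTTC at 55 bases before its start, followed directly by a further TTTC at the closer spacing. That wider form was found in 6 of 34 genes (17.6%), beside 3.17% of the table. The gamma-activated sequence TTCNNNGAA, known from genes that answer to interferon-gamma, was found in 7 of 34 (20.6%), beside 9.55%. In the 200 bases before the start site alone, the core stood in 8 of 34 (23.5%) beside 2.65%, and the gamma-activated sequence in 2 of 34 (5.88%) beside 6.38%. A match is a run of letters and not a shown binding site.

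**Figure D2:**
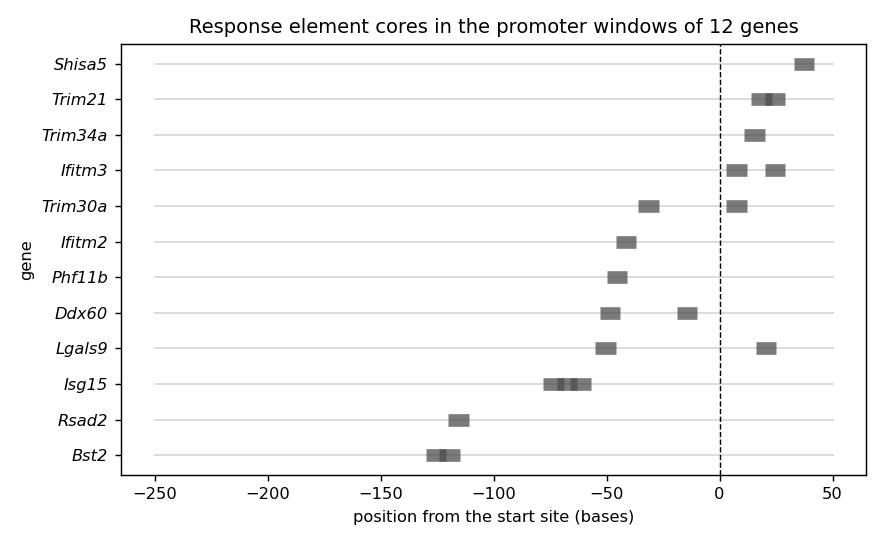
Positions of the response element core (grey blocks of 10 bases) relative to the start site (dashed line at 0), in bases, in the promoter windows of the 12 genes that held it. The blocks lie between 130 bases before and 42 bases after the start, and those of *Trim30a* come from 2 windows with different start sites. That of *Shisa5* comes from the window of a start site inside the gene.

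The ISG15 system rose in the cKO and fell under JQ1. ISG15 is a small ubiquitin-like protein that is joined to other proteins, and HERC6 is the main ligase for it in mice. *Isg15* stood at 52.2 and 29.2 CPM in the controls and at 136 and 145 in the cKO, and at 35.3 and 35 in the JQ1 controls and 3.27 and 4.12 under JQ1. Its log2 fold change was 1.78 ± 0.21 in the cKO (adjusted p = 9.7e-05) and -3.24 ± 0.15 under JQ1 (adjusted p = 1.08e-40). The controls of the Arid1a experiment differed widely for *Isg15*, yet no library of the cKO overlapped them.

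*Herc6* stood at 18.0 and 16.5 CPM in the controls and 58.5 and 55.4 in the cKO, and at 21.5 and 21.7 in the JQ1 controls and 10.1 and 10.8 under JQ1. It rose by a log2 fold change of 1.73 ± 0.12, close to that of *Isg15*, but its change under JQ1 was only -1.04 ± 0.14 (adjusted p = 2.61e-06 and 1.48e-10).

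All 3 tested genes for GTP-binding proteins rose in the cKO and fell under JQ1, *Ifi44* by more than any other gene of the set. MX1 and MX2 are dynamin-like GTPases that trap viral nucleocapsids, although C57BL/6 mice, like most inbred strains, carry a deletion in *Mx1* that leaves no working protein. IFI44 is an interferon-induced protein with a predicted nucleotide-binding site. *Mx1* stood at 14.7 and 12 CPM in the controls and 115 and 114 in the cKO, and at 24.3 and 18.3 in the JQ1 controls and 2.14 and 2.65 under JQ1. It was 8.57-fold higher in the cKO (log2 fold change 3.10 ± 0.13, adjusted p = 1.76e-07) and 8.83-fold lower under JQ1 (-3.14 ± 0.19, adjusted p = 1.83e-30). The 2 changes of *Mx1* were thus of nearly the same size in opposite directions.

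*Ifi44* stood at 5.17 and 3.67 CPM in the controls and 50.2 and 47.2 in the cKO, and at 8.13 and 6.69 in the JQ1 controls and 0.267 and 0.295 under JQ1. Its rise of 3.46 ± 0.17 (adjusted p = 2.62e-07) and its fall to -4.68 ± 0.40 (adjusted p = 4.17e-20) were the largest of the set in each experiment. Its level under JQ1 rests on 9 reads in 2 libraries, against 235 in the controls, a 26.3-fold fall with a 95% counting interval of 13.6 to 58.3.

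*Mx2* stood at 7.79 and 5.28 CPM in the controls and 35.2 and 36.7 in the cKO, and at 10.8 and 8.41 in the JQ1 controls and 0.801 and 1.12 under JQ1. Its log2 fold changes were 2.45 ± 0.18 (adjusted p = 4.15e-06) and -3.30 ± 0.28 (adjusted p = 7.77e-20). *Mx1* and *Mx2* are close relatives, as are *Ifi44* and *Ifi44l*, and reads that match both copies cannot be assigned with certainty. *Ifi44l* had 0 reads in 7 libraries and 2 in JQ1 b, so that it was not detectable at this depth and was not tested.

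**Figure D3:**
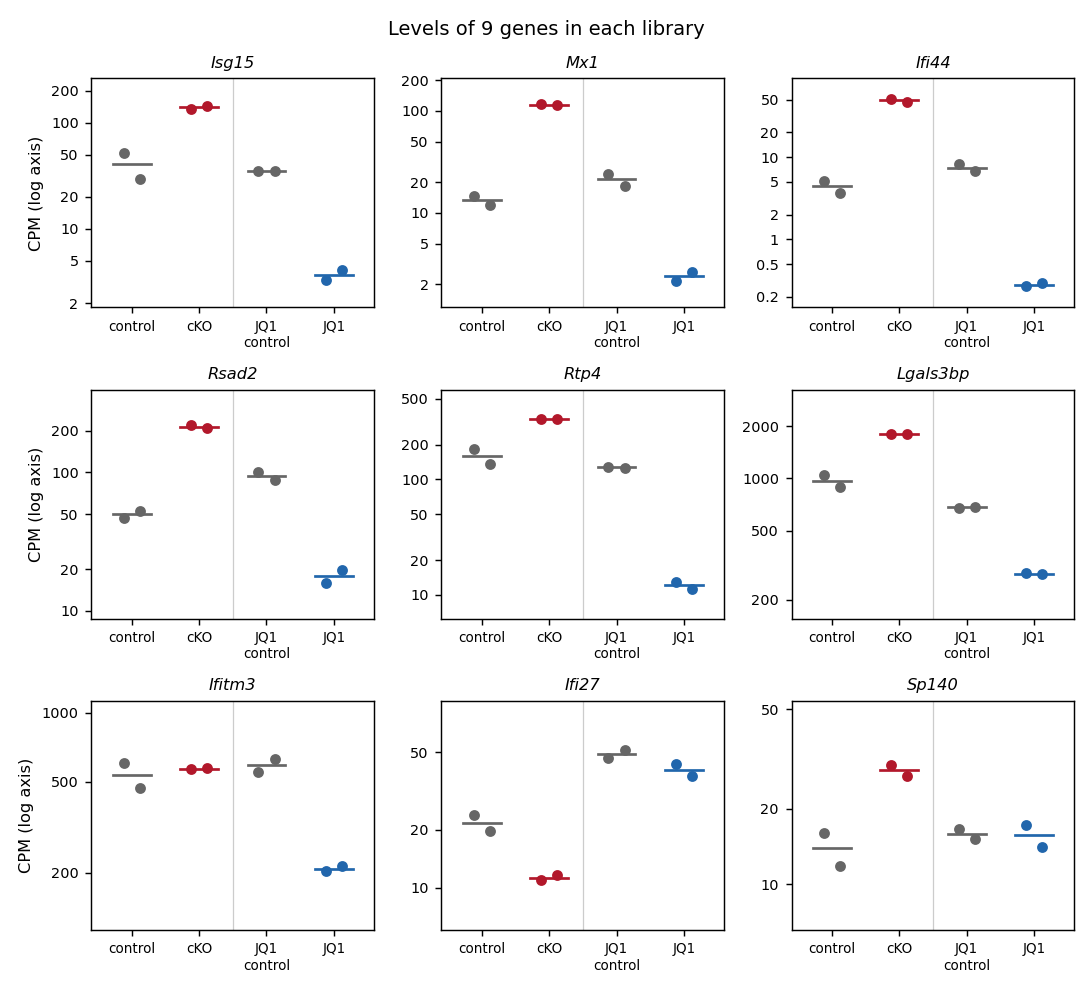
CPM of 9 genes in each library (points, log axis) with the mean of each group of 2 libraries (lines), controls in grey, cKO in red and JQ1 in blue. *Isg15*, *Mx1*, *Ifi44*, *Rsad2*, *Rtp4* and *Lgals3bp* are above their controls in the cKO and below them under JQ1, whereas *Ifitm3*, *Ifi27* and *Sp140* follow other patterns.

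All 8 genes for enzymes that act on nucleotides or RNA rose in the cKO and fell under JQ1. *Rsad2* encodes viperin, which makes a chain-terminating nucleotide, and *Cmpk2*, its neighbour on chromosome 12, encodes a kinase that can supply the substrate. *Rsad2* stood at 46.6 and 53.0 CPM in the controls and 221 and 209 in the cKO, and at 101 and 87.5 in the JQ1 controls and 15.8 and 19.8 under JQ1. *Cmpk2* stood at 52.3 and 46.2 CPM in the controls and 161 and 168 in the cKO, and at 69.0 and 58.3 in the JQ1 controls and 12.7 and 10.3 under JQ1. The mean of both neighbours was higher in the cKO and lower under JQ1, while the 2 libraries of a group did not rank alike for them except in the JQ1 controls. *Rsad2* changed by 2.11 ± 0.11 and -2.40 ± 0.09 on the log2 scale (adjusted p = 3.16e-07 and 2.16e-44), and *Cmpk2* by 1.74 ± 0.11 and -2.47 ± 0.11 (adjusted p = 1.17e-06 and 3.61e-41).

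*Ddx60*, a helicase-like gene of the antiviral response, stood at 11.2 and 12 CPM in the controls and 70.3 and 69.6 in the cKO, and at 22.9 and 20.9 in the JQ1 controls and 4.27 and 4.95 under JQ1. Its log2 fold changes were 2.59 ± 0.12 (adjusted p = 1.88e-07) and -2.24 ± 0.16 (adjusted p = 9.96e-25). *Isg20*, an exonuclease for RNA, was scarce, at 2.29 to 6.33 CPM in the 4 control libraries, and changed by 2.44 ± 0.23 and -2.73 ± 0.49, the second resting on 13 reads under JQ1.

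The other enzymes were more abundant and changed less. *Helz2*, a helicase gene, changed by 1.45 ± 0.11 and -1.43 ± 0.08 on the log2 scale. *Znfx1*, a helicase that senses double-stranded RNA, changed by 1.48 ± 0.09 and -0.69 ± 0.06. *Adar*, which edits adenosine to inosine in double-stranded RNA, changed by 1.08 ± 0.10 and -0.85 ± 0.07. The smallest change of this role was that of *Samhd1*, which breaks down deoxynucleotides, at 0.78 ± 0.08 and -0.50 ± 0.05.

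The membrane proteins were the role with the most exceptions. Of 6 genes, 3 rose in the cKO (*Rtp4*, *Bst2* and *Shisa5*), 1 fell (*Ifi27*) and 2 were not called (*Ifitm2* and *Ifitm3*). Under JQ1, 5 fell. *Rtp4*, a chaperone of membrane receptors with antiviral activity, stood at 181 and 135 CPM in the controls and 332 and 333 in the cKO, and at 128 and 126 in the JQ1 controls and 12.9 and 11.2 under JQ1. It rose by only 1.07 ± 0.13 in the cKO (adjusted p = 0.000112), and its fall to -3.40 ± 0.09 under JQ1 (10.6-fold, adjusted p = 7.14e-65) was second only to that of *Ifi44*. *Bst2*, which encodes tetherin, a protein that holds budding virions at the cell surface, stood at 149.9 and 111 CPM in the controls and 280.3 and 274 in the cKO, and at 266 and 294 in the JQ1 controls and 118 and 116 under JQ1. Its changes of 1.09 ± 0.13 (adjusted p = 0.000117) and -1.26 ± 0.06 (adjusted p = 6.62e-41) were similar in size. *Shisa5*, linked to apoptosis, changed little, by 0.48 ± 0.08 and -0.43 ± 0.06.

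IFITM2 and IFITM3 sit in membranes and hinder the entry of viruses. *Ifitm3* had the highest level per gene length of the set, at a mean of 807 FPKM in the controls and 887 FPKM in the JQ1 controls. It stood at 602 and 469.7 CPM in the controls and 567 and 574 in the cKO, so that the groups overlapped, and at 554 and 628 in the JQ1 controls and 202 and 214 under JQ1. The change in the cKO was 0.09 ± 0.11 (adjusted p = 0.571), and under JQ1 it was -1.51 ± 0.05 (adjusted p = 5.32e-49). With control 1 left out, *Ifitm3* was called higher in the cKO (0.28, adjusted p = 9.69e-10), and with control 2 left out its change was -0.079, so that the control pair decides this value. The scarce *Ifitm2* stood at 4.14 and 4.96 CPM in the controls and 4.15 and 5.58 in the cKO, and at 6.88 and 5.99 in the JQ1 controls and 5.14 and 5.48 under JQ1. It was called in neither experiment (0.10 ± 0.25, adjusted p = 0.8, and -0.28 ± 0.21, adjusted p = 0.318).

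*Ifi27*, a small mitochondrial membrane protein, ran against the rest of the set in the cKO. It stood at 23.8 and 19.6 CPM in the controls and 11.0 and 11.7 in the cKO, a log2 fold change of -0.94 ± 0.16 (adjusted p = 0.00114). In the other experiment it stood at 46.8 and 51.3 CPM in the JQ1 controls and 43.8 and 37.6 under JQ1 (-0.27 ± 0.09, adjusted p = 0.0106). That second call was lost with DESeq2 (adjusted p = 0.112) and in 1 fit over 8 libraries (adjusted p = 0.102). Its adjusted p under JQ1 rose to 0.305 when the library JQ1 b was left out and to 0.121 without JQ1 control b.

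The 4 genes of ADP-ribosylation rose in the cKO and fell under JQ1, within a narrow range. PARP9 and DTX3L form a complex, and their genes lie head to head on chromosome 16 and overlap by 682 bases on opposite strands, so that reads from the overlap cannot be assigned with certainty, the strand setting of the counting being unstated. *Dtx3l* stood at 47.4 and 44.3 CPM in the controls and 193 and 189 in the cKO, and at 44.4 and 36.8 in the JQ1 controls and 19.5 and 17.6 under JQ1. *Parp9* stood at 74.9 and 66.2 CPM in the controls and 185 and 178 in the cKO, and at 74.4 and 75.4 in the JQ1 controls and 35.9 and 38.4 under JQ1. The log2 fold changes of *Dtx3l* were 2.06 ± 0.10 and -1.13 ± 0.11 (adjusted p = 2.32e-07 and 5.86e-17), and those of *Parp9* were 1.36 ± 0.10 and -1.01 ± 0.08 (adjusted p = 4.98e-06 and 6.98e-21).

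*Parp14*, a mono-ADP-ribosyltransferase, was abundant, at 239.6 and 252 CPM in the controls and 753 and 756 in the cKO, and at 395 and 348 in the JQ1 controls and 145 and 138 under JQ1. It changed by 1.62 ± 0.08 (adjusted p = 3.72e-07) and -1.39 ± 0.06 (adjusted p = 2.16e-44). *Parp12*, of the same enzyme class, changed by 1.39 ± 0.11 and -1.24 ± 0.07.

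All 4 TRIM ubiquitin ligases rose in the cKO and fell under JQ1, with medians of 1.46 and -0.68. *Trim30a*, a brake on NF-kB signalling in mice, stood at 153 and 141 CPM in the controls and 424 and 423 in the cKO, and at 184 and 178 in the JQ1 controls and 81.8 and 80.6 under JQ1 (1.52 ± 0.09 and -1.16 ± 0.06, adjusted p = 8.17e-07 and 3.87e-34). *Trim21*, which binds antibodies on viruses that have entered the cell, stood at 26.8 and 24.5 CPM in the controls and 70.1 and 64.8 in the cKO, and at 39.4 and 37.3 in the JQ1 controls and 30.1 and 32.9 under JQ1. Its rise of 1.39 ± 0.11 (adjusted p = 9.13e-06) was typical of the set, but its change under JQ1 was small (-0.28 ± 0.10, adjusted p = 0.0153). That call under JQ1 was lost with DESeq2 (adjusted p = 0.118), in 1 fit over 8 libraries (adjusted p = 0.054), without JQ1 control a (adjusted p = 0.0949) and without JQ1 a (adjusted p = 0.189).

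*Trim34a* stood at 21.5 and 15.8 CPM in the controls and 60.5 and 65.2 in the cKO, and at 21.1 and 18.1 in the JQ1 controls and 10.3 and 9.43 under JQ1 (1.75 ± 0.15 and -0.99 ± 0.14). *Trim25*, the ligase that activates the RNA sensor RIG-I, changed by 0.66 ± 0.09 and -0.36 ± 0.06. *Trim30a* and *Trim34a* belong to clusters of near-identical genes, and their counts are uncertain to that extent.

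Of the 6 nuclear body and chromatin genes, all rose in the cKO and 5 fell under JQ1. PML builds the nuclear bodies in which SP100 and DAXX reside and where viral genomes are silenced. *Sp100* stood at 189 and 152 CPM in the controls and 402 and 420.4 in the cKO, and at 175 and 163 in the JQ1 controls and 72.9 and 70.0 under JQ1 (1.27 ± 0.11 and -1.24 ± 0.07). *Daxx*, a histone chaperone, stood at 61.2 and 53.6 CPM in the controls and 141 and 134 in the cKO, and at 52.3 and 50.7 in the JQ1 controls and 34.6 and 33.9 under JQ1 (1.26 ± 0.11 and -0.59 ± 0.09). *Pml* itself changed by 0.95 ± 0.09 and only -0.28 ± 0.07.

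*Sp140*, a chromatin reader of immune cells, was the exception. It stood at 16.0 and 11.8 CPM in the controls and 30.1 and 27.0 in the cKO (1.03 ± 0.16, adjusted p = 0.000782), and at 16.6 and 15.2 in the JQ1 controls and 17.3 and 14.1 under JQ1 (-0.02 ± 0.14, adjusted p = 0.92). The 2 groups of the JQ1 experiment overlapped for this gene. *Phf11b* showed the opposite balance, at 41.4 and 30.9 CPM in the controls, 105 and 107 in the cKO, 33.6 and 38.7 in the JQ1 controls and 5.67 and 3.95 under JQ1 (1.55 ± 0.14 and -2.92 ± 0.15). Its close relative *Phf11d* changed by 1.93 ± 0.18 and -2.77 ± 0.13, and reads that match both copies cannot be assigned with certainty.

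**Figure D4:**
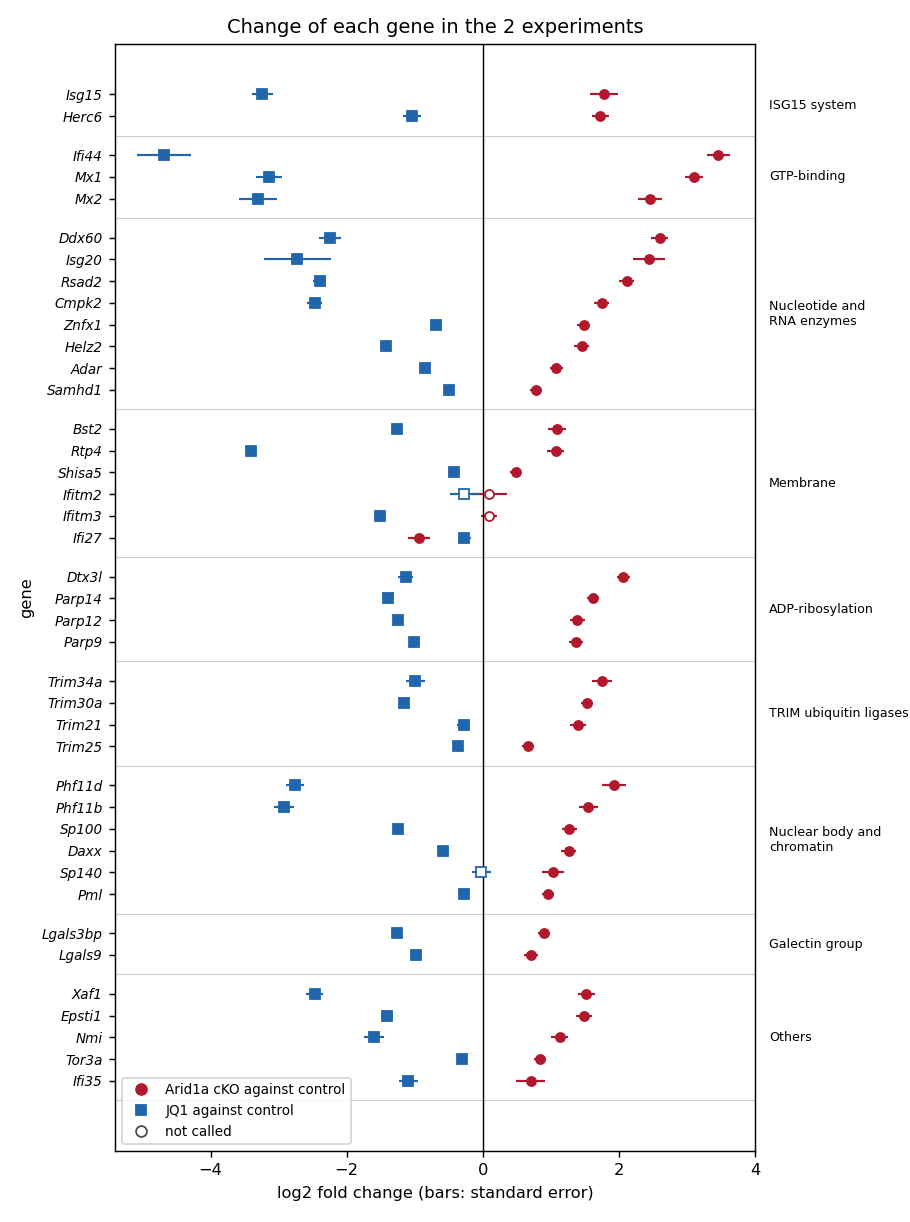
Log2 fold change (horizontal axis, bars for the standard error) of the 40 tested genes in the cKO (red circles) and under JQ1 (blue squares), ordered by role, with open symbols where a gene was not called. Red symbols lie right of 0 except for *Ifi27*, and blue symbols lie left of 0, with *Sp140* at -0.02.

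The galectin group held the most abundant transcript by read share. *Lgals3bp*, a secreted glycoprotein that binds galectins, stood at 1041 and 896 CPM in the controls and 1800.1 and 1809 in the cKO, and at 675 and 688 in the JQ1 controls and 286 and 280.0 under JQ1 (0.90 ± 0.09 and -1.27 ± 0.05). *Lgals9*, which encodes galectin-9, stood at 143 and 121 CPM in the controls and 211 and 218 in the cKO, and at 207 and 217 in the JQ1 controls and 99.5 and 114 under JQ1 (0.70 ± 0.10 and -0.99 ± 0.06). Both rose less than the median of the set.

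Of the remaining genes, *Xaf1*, an antagonist of the caspase inhibitor XIAP, stood at 47.7 and 38.8 CPM in the controls and 119.5 and 128 in the cKO, and at 43.6 and 47.1 in the JQ1 controls and 9.75 and 6.77 under JQ1 (1.52 ± 0.12 and -2.47 ± 0.12). *Epsti1* stood at 70.4 and 57.0 CPM in the controls and 174 and 182 in the cKO, and at 72.4 and 76.9 in the JQ1 controls and 30.7 and 25.7 under JQ1 (1.48 ± 0.12 and -1.41 ± 0.09). *Tor3a*, an ATPase of the endoplasmic reticulum, stood at 115 and 109 CPM in the controls and 201 and 201 in the cKO, and at 146 and 143 in the JQ1 controls and 117 and 117 under JQ1 (0.84 ± 0.09 and -0.30 ± 0.06). *Xaf1* was thus among the genes that fell most and *Tor3a* among those that fell least. The binding partners *Nmi* and *Ifi35* changed by 1.13 ± 0.12 and -1.60 ± 0.14, and by 0.70 ± 0.21 and -1.09 ± 0.14.

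The difference between the 2 responses was tested in 1 fit over the 8 libraries. It was called above 0 in 38 of the 40 genes, where 15.8% of all 11767 tested genes were, and below 0 in 1, *Ifi27*, where 12.5% were. *Parp14*, *Rsad2*, *Mx1*, *Ddx60* and *Trim30a* had the smallest p, with differences of 3.01 ± 0.10, 4.50 ± 0.16, 6.24 ± 0.23, 4.83 ± 0.18 and 2.68 ± 0.10 on the log2 scale (adjusted p between 7.36e-12 and 1.4e-11). The median difference of the set was 2.65, beside -0.02 over all genes. For *Ifitm2* it was 0.37 ± 0.32 and was not called.

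Genes that rose more in the cKO tended to fall more under JQ1. Across the 40 genes Pearson's r between the 2 log2 fold changes was -0.70 and Spearman's rho was -0.67, as a description over genes, which are not independent, beside -0.06 and 0.12 over the 10987 genes tested in both. The relation of each change to the level in the controls was looser, with r of -0.43 and rho of -0.48 in the cKO and r of 0.37 and rho of 0.21 under JQ1. A fold change shares its control values with that level.

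Whether the rise and the fall of a gene were of the same size was tested by adding the 2 log2 fold changes in the fit over 8 libraries, a comparison chosen after the values were seen. The sum was called above 0 in 12 of 40 genes, where 19% of all tested genes were, and below 0 in 10, where 20.1% were. Both counts come to shares of the set that are not far from those of all genes, and the genes are given for their own values. Among the 12 with a sum above 0, 11 were called in both experiments and so rose more than they fell. *Trim21* led them with a sum of 1.11 ± 0.14 (adjusted p = 1.98e-05), followed by *Dtx3l* with 0.93 ± 0.14 (adjusted p = 0.00012) and *Znfx1* with 0.79 ± 0.11 (adjusted p = 3.12e-05).

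The others that rose more than they fell were *Trim34a*, *Herc6*, *Daxx*, *Pml*, *Tor3a*, *Trim30a*, *Parp9* and *Samhd1*, with sums from 0.76 ± 0.21 down to 0.28 ± 0.09. The calls of the last 2 were not stable: that of *Parp9* (0.35 ± 0.12, adjusted p = 0.0302) was lost in 7 of 14 alternatives, with adjusted p up to 0.138 (without JQ1 b). That of *Samhd1* (adjusted p = 0.0242) was lost in 6 of 14, with adjusted p up to 0.141 (without JQ1 control b). *Sp140* also had a sum above 0 (1.01 ± 0.22) but was not called under JQ1. Among the 10 with a sum below 0, 8 were called in both experiments and fell more than they rose. *Rtp4* had the lowest sum, at -2.33 ± 0.17 (adjusted p = 7.34e-08), followed by *Isg15* at -1.45 ± 0.32 (adjusted p = 0.00292) and *Phf11b* at -1.37 ± 0.22 (adjusted p = 0.000195).

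*Ifi44* (-1.22 ± 0.47), *Xaf1* (-0.95 ± 0.19), *Phf11d* (-0.84 ± 0.25), *Cmpk2* (-0.73 ± 0.16) and *Lgals3bp* (-0.37 ± 0.10) made up the rest of those 8. The sum of *Ifi44* had an adjusted p of only 0.0487, and DESeq2 (0.0736), limma-voom (0.157) and the fits that left out 1 of 6 of the 8 libraries in turn (adjusted p of 0.0742 to 0.175) did not call it. *Ifitm3* and *Ifi27* also had sums below 0 but did not rise in the cKO. For *Mx1* the sum was -0.04 ± 0.23 and for *Helz2* 0.02 ± 0.16. The 2 experiments had separate controls.

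**Figure D5:**
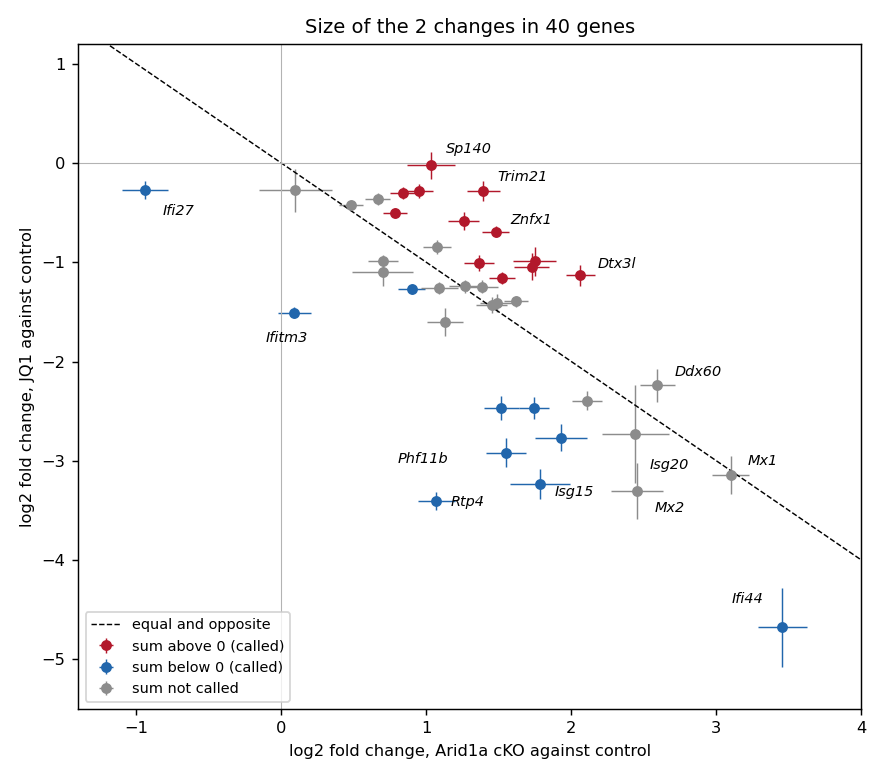
Log2 fold change in the cKO (horizontal axis) against that under JQ1 (vertical axis) for the 40 tested genes, with bars for the standard error and a dashed line where the changes are equal and opposite. Of the 40, 12 lie above the line by the test of the sum (red), 10 below it (blue) and 18 were not called (grey), and *Rtp4* lies farthest below it.

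Per gene length the set spanned a wide range in the controls of the Arid1a experiment. *Ifitm3* at a mean of 807 FPKM, *Lgals3bp* at 347 FPKM, *Bst2* at 147 FPKM and *Shisa5* at 103 FPKM were at the top. *Ifi44* at 0.736 FPKM, *Ddx60* at 1.36 FPKM and *Mx2* at 1.85 FPKM were at the bottom. In the cKO the order at the top was *Ifitm3* (822 FPKM), *Lgals3bp* (619 FPKM), *Bst2* (300 FPKM) and *Isg15* (195 FPKM). Under JQ1 *Isg15* had only 5.16 FPKM and *Rtp4* 5.56 FPKM, beside 50.9 and 60.8 FPKM in their controls.

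The genes that carry the interferon signal were read from a separate list of 18, of which 17 could be tested. In the cKO 10 of them were called higher and 0 lower (edgeR), beside 18.1% and 16.3% of all tested genes. The 17 had a median log2 fold change of 0.47. Under JQ1 8 were called lower and 5 higher, beside 20.5% and 19.3% of all tested genes. The median of the 17 was -0.45 there. The receptor changed little: *Ifnar1* stood at 281 and 305 CPM in the controls and 344 and 339 in the cKO (0.22 ± 0.09, adjusted p = 0.0708), and at 228 and 224 in the JQ1 controls and 258 and 267 under JQ1 (0.22 ± 0.05, adjusted p = 0.000527). *Ifnar2* was called in neither experiment, with 48.3 to 65.8 CPM in all 8 libraries.

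The transcription factor genes *Stat2* and *Irf9* rose in the cKO and fell under JQ1. *Stat2* stood at 109.9 and 105 CPM in the controls and 459.9 and 466 in the cKO, and at 156 and 141 in the JQ1 controls and 82.8 and 84.6 under JQ1 (2.10 ± 0.09 and -0.83 ± 0.07). *Irf9* stood at 82.2 and 72.2 CPM in the controls and 110.1 and 105 in the cKO, and at 79.6 and 81.0 in the JQ1 controls and 33.8 and 36.5 under JQ1 (0.48 ± 0.11 and -1.19 ± 0.08). *Stat2* thus rose more than it fell and *Irf9* fell more than it rose (sums of 1.28 ± 0.10 and -0.71 ± 0.13, adjusted p = 2.07e-07 and 0.000385).

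*Irf7*, the factor that amplifies interferon production, stood at 233 and 157 CPM in the controls and 1173 and 1209.9 in the cKO, and at 114 and 117 in the JQ1 controls and 14.0 and 14.8 under JQ1 (2.61 ± 0.15 and -3.00 ± 0.09). *Usp18*, which removes ISG15 from proteins and damps the receptor, stood at 23.5 and 12.6 CPM in the controls and 70.2 and 73.1 in the cKO, and at 48.5 and 46.7 in the JQ1 controls and 5.27 and 5.83 under JQ1 (1.98 ± 0.21 and -3.09 ± 0.13). With *Isg15*, *Herc6*, *Uba7* (1.18 ± 0.11 and -1.30 ± 0.09) and *Ube2l6* (1.03 ± 0.13 and -1.59 ± 0.09), all steps of ISG15 conjugation and removal that were measured moved in the same directions. *Ifnb1*, the gene of interferon-beta, had 2 reads over both controls and 13 over both libraries of the cKO, a ratio of 6.54 with a 95% counting interval of 1.48 to 59.7, and 0 reads in the JQ1 experiment.

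Markers of other cells were read beside these results. Of 10 neutrophil markers 8 could be tested, and all 8 were called higher in the cKO, beside 18.1% of all tested genes. The summed level of the list was 29.5 and 20.7 CPM in the controls and 140.1 and 117 in the cKO. Under JQ1, 5 of the 8 were called lower, beside 20.5% of all tested genes. The summed level was 38.8 and 40.7 CPM in the JQ1 controls and 21.3 and 23.5 under JQ1. The defining neutrophil gene *Ly6g* was at 0 in 7 of the 8 libraries. Of the plasmacytoid dendritic cell markers, *Siglech* was at 0 in all libraries. The scarce *Cox6a2* had 0 reads in both controls and 16 and 13 in the cKO and was called higher (adjusted p = 0.00358). The summed level of the list, nearly all of it *Irf8* and *Tcf4*, was 124 and 125 CPM in the controls and 119.6 and 125 in the cKO. It was 171 and 172 CPM in the JQ1 controls and 203 and 199 under JQ1, where *Irf8* was called higher (0.41 ± 0.06).

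All 6 monocyte and macrophage markers were detected in every library, and they did not move one way. In the cKO, *Cx3cr1* (2.79 ± 0.09), *Adgre1* (1.47 ± 0.08), *Csf1r* (0.51 ± 0.08) and *Itgam* (0.34 ± 0.11) were called higher, *Lyz2* was called lower (-1.39 ± 0.10) and *Cd68* was not called. Their summed level, most of it *Lyz2*, was 16344 and 13973 CPM in the controls and 9704 and 9702 in the cKO. Under JQ1, 3 were called higher and 2 lower, beside 19.3% and 20.5% of all tested genes. The sums were 16138 and 17136 CPM in the JQ1 controls and 20875 and 21555 under JQ1. The osteoclast gene *Calcr* was at 0 in all 8 libraries. Osteoclast markers were called lower in 4 of 6 cases in the cKO and in 5 of 5 under JQ1, beside 16.3% and 20.5% of all tested genes. The summed level of B cell markers was at most 0.688 CPM and that of T and NK cell markers at most 0.255 CPM. The part of these cell types in the changes of the antiviral genes was not tested.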

How the data were processed

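Per the labels and methods, the authors trimmed reads with Cutadapt, aligned them to GRCm39 with HISAT2 and made gene-level counts with HTSeq. Both deposited tables give raw read counts and FPKM, which the authors derived from counts, gene length and library total. FPKM of the Arid1a experiment was used as deposited; 4 JQ1 FPKM columns were not used, and JQ1 FPKM was computed from the counts by the same formula. Strand setting, annotation release and read filters were not given in the sources used here. Each table had 1 empty line, which was dropped.

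After filterByExpr and TMM scaling, edgeR 4.0.16 (R 4.3.3) gave quasi-likelihood F tests of the counts, with Benjamini-Hochberg adjustment over all genes tested and calls at an adjusted p under 0.05. The log2 fold change over the square root of F, without sign, served as its SE. The code was tested on simulated counts. Intervals of read ratios cover counting error only. Genes named with values in every library were, per role, up to 3 genes with the smallest p in the cKO, genes not called or not tested there, the 4 lowest and 4 highest changes under JQ1, the 5 smallest p for the difference, and set signalling genes. The genes, lists and roles were chosen with earlier results of these data known. Alternatives were DESeq2 1.42.0, limma-voom and limma-trend (limma 3.58.1), other scaling factors and filters, a replicate block, 1 fit over 8 libraries and leaving out each library. Promoter sequences are from RefSeq.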

Additional observations from a re-analysis of the deposited data

How the results depend on the processing

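The count of genes called higher in the cKO was 36 to 38 when each library was left out in turn and 37 in every other fit, and the count called lower under JQ1 was 36 to 38, except that a 2-fold limit gave 29 and 26. A 2-fold limit lowered the single lower call in the cKO and that of the difference to 0, and leaving out each library gave 0 to 1 for the latter. With that limit the sum of the responses was called above 0 in 2 genes and below 0 in 6. Left-out libraries gave 9 to 15 and 7 to 15. The values that changed sign belonged to genes without a call when all libraries were kept: with each library left out in turn, *Ifitm2* in the cKO ran from -0.13 (without cKO 2) to 0.30, *Ifitm3* from -0.079 (without control 2) to 0.28 (without control 1, where it was called higher), and *Sp140* under JQ1 from -0.17 to 0.13 (without JQ1 b). *Shisa5* lost its call without cKO 2 (adjusted p = 0.052), and the causes were not tested. Samples of the same number did not deviate together (r of 0.02 and -0.04), and a replicate block gave 37 higher and 1 lower in the cKO and 0 higher and 38 lower under JQ1. Of the 308 alternative values of the sum for its 22 called genes, 28 missed the threshold, 8 of them for *Ifi44*, 7 for *Parp9* and 6 for *Samhd1*. A group reduced to 1 library took its spread from the other groups. With 2 libraries a group, small changes of scarce genes such as *Ifitm2* were not detectable.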
